A study of Homo sapiens with 12 samples.

Results

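The Hippo pathway is described here through 10 of the 57820 genes counted in T47D-MTVL cells. The genes were chosen by name: the transcriptional coactivators YAP1 and WWTR1 (which encodes TAZ), their DNA-binding partners TEAD1 and TEAD3, the kinase LATS2, the targets CYR61 (CCN1), CTGF (CCN2), AMOTL2 and ANKRD1, and the MOB family gene MOB3B. Earlier results of these data were known at that choice, and the counts of called genes below are to be read with that limit. All 10 were found in the deposited tables by gene identifier.

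RNA was sequenced in 12 libraries, 2 in each of 6 groups. T47D-MTVL is a line derived from the hormone-responsive luminal breast cancer line T47D, and it carries a luciferase reporter driven by the MMTV promoter. Poly(A) RNA came from cells transfected with siPADI2, an siRNA against the peptidylarginine deiminase gene PADI2, and from cells transfected with siCtrl. Poly(A) RNA also came from cells labelled as expressing the R1810A form of RNA polymerase II (RNAP2) and from cells whose label names wild-type (WT) RNAP2. In both RNAP2 groups the polymerase was transfected, HA-tagged and alpha-amanitin-resistant, and the cells had 24 h of expression followed by 12 h in 6 µg/ml alpha-amanitin, which inhibits endogenous RNAP2. The chromatin-bound RNA fraction was sequenced after siPADI2 and after siCtrl. All groups grew in charcoal-stripped serum without the progestin R5020. No label states that the paired libraries were grown apart, and the p-values therefore cover variation between libraries that could be technical only.

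In the Hippo pathway, the kinases STK3 and STK4 activate the kinases LATS1 and LATS2, with SAV1 and MOB1 proteins as partners. Active LATS kinases phosphorylate YAP and TAZ and keep them out of the nucleus. When not phosphorylated, YAP and TAZ bind TEAD factors on DNA and raise targets such as CYR61, CTGF, ANKRD1 and AMOTL2. Since this control acts on the proteins, mRNA levels of YAP1 and WWTR1 are not a measure of their activity. In breast epithelium, YAP and TAZ are known mainly from basal rather than luminal cells.

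TEAD factors recognise GGAATG, or CATTCC on the other strand, and this was searched on both strands in the 250 bases before each start site listed by RefSeq (GRCh38.p14). The pair of words is the same site read from either strand. Promoters were listed for 8 of the 10 genes, not for TEAD1 or CYR61. The word was present in promoters of CTGF, ANKRD1, YAP1 and AMOTL2, and those are shown, 5′ to 3′ on the gene's own strand, with each match in capitals. CTGF (chr6:131951373-131951622, minus strand) had 3 matches, whose first bases lay at −169, −104 and −95 from the start. ANKRD1 (chr10:90921088-90921337, minus strand) had 2 matches, at −220 and −128. YAP1 (chr11:102110197-102110446, plus strand) had 1 match, at −162. AMOTL2 had 1 match, at −69, in the second of its 2 listed promoters (chr3:134374448-134374697, minus strand) and none in the other.
CTGF: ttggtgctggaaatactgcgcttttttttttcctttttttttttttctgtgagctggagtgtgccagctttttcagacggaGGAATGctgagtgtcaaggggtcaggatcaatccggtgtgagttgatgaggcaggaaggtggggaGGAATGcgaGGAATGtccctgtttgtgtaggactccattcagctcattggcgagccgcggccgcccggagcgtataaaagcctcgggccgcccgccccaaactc
ANKRD1: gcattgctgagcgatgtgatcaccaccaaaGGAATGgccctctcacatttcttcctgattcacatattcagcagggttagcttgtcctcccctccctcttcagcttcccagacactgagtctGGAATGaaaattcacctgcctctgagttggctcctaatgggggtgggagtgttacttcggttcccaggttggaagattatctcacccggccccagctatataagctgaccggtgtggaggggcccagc
YAP1: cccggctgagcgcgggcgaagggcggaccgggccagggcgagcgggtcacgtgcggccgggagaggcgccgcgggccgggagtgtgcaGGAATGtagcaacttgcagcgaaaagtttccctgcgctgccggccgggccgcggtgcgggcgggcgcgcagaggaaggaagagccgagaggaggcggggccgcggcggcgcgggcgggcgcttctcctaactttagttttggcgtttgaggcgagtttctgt
AMOTL2: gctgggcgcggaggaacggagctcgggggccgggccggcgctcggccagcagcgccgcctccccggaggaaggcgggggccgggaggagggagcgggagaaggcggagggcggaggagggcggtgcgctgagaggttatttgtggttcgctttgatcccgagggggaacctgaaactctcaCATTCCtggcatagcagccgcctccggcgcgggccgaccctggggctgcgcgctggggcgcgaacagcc
Among all 35116 promoters listed, 11.9% held at least 1 match and 0.0826% held at least 3. The listed promoters of WWTR1, TEAD3, LATS2 and MOB3B held none in this window. A match describes the letters and is not a measured binding site.

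The libraries differed widely in depth. Total counts, in units of 1e6, ran from 44.32 to 132.76 in poly(A) RNA, and in chromatin RNA they were 2.80 and 2.72 after siPADI2 against 7.04 and 6.67 after siCtrl. PADI2 itself stood at 1.83 and 1.88 CPM after siPADI2 and at 24.0 and 22.6 CPM after siCtrl in poly(A) RNA (CPM are counts per 1e6 of the scaled library size). The libraries labelled R1810A were low in PADI2 too, with 3.13 and 2.35 CPM against 48.9 and 50.7 CPM in WT libraries, although their labels name no siRNA. Every direction drawn from the libraries labelled R1810A carries that doubt. All 8 luminal markers were detected in poly(A) RNA. Their summed level was 4767 to 5185 CPM after siPADI2 and 8676 to 9725 CPM after siCtrl, and 4952 to 5636 CPM in the libraries labelled R1810A and 8635 to 9119 CPM in WT libraries. Of the 8, 6 were lower in each of these comparisons, beside 27.9% and 24.3% of all genes. The 6 were not all the same, since KRT18 did not pass with siPADI2, nor FOXA1 in the libraries labelled R1810A. EPCAM was higher in both comparisons (0.62 with siPADI2 and 0.36 in the libraries labelled R1810A). In chromatin RNA the sum was 983 to 1415 CPM after siPADI2 and 2186 to 2313 CPM after siCtrl. There 4 of the 8 were lower and 0 higher, beside 20.1% and 12.2% of all genes. KRT8, KRT18 and KRT19 made up most of the luminal sum in every library. KRT19 alone averaged 1055 CPM after siPADI2 and 3581 CPM after siCtrl in poly(A) RNA. Markers of basal cells summed to at most 1.60 CPM and blood markers to at most 0.105 CPM in any poly(A) library. Of the 5 mesenchymal markers, summing to 52.0 to 78.7 CPM in poly(A) libraries, COL1A1 made up most of the sum. The part of the luminal marker difference in the results that follow was not tested. In bulk RNA, fewer cells of a type and less RNA per cell cannot be told apart.

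Per kilobase of exon, YAP1 was the most abundant of the 10 genes in 3 of the 4 poly(A) groups. After siPADI2 it averaged 56.8 ± 0.225 CPM per kb (SD, n = 2), followed by CYR61 (25.1 ± 1.86), TEAD3 (15.5 ± 0.627) and AMOTL2 (15.0 ± 0.372). TEAD3 and AMOTL2 overlapped there, while every other pair of neighbours in the order was separate. After siCtrl the order was YAP1 (34.1 ± 1.56 CPM per kb), TEAD3 (30.6 ± 1.22), AMOTL2 (27.5 ± 1.13) and then CYR61 (8.79 ± 0.333), which overlapped with WWTR1 (8.58 ± 0.285).

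In the libraries labelled R1810A, YAP1 (42.5 ± 1.36 CPM per kb) and CYR61 (34.1 ± 2.66) led, and AMOTL2 and TEAD3 overlapped at 15.2 ± 1.04 and 14.9 ± 0.459, as did ANKRD1 and MOB3B lower in the order. In WT libraries AMOTL2 led (34.5 ± 1.07 CPM per kb), ahead of YAP1 (32.7 ± 1.31) and CYR61 (31.9 ± 0.598), which overlapped with each other. CTGF was the least abundant of the 10 in 3 of the 4 poly(A) groups, the exception being WT. It averaged 0.0462 ± 0.0212 CPM per kb after siPADI2 and 0.0240 ± 0.0195 after siCtrl, and 0.429 ± 0.00121 in the libraries labelled R1810A and 2.05 ± 0.0503 in WT libraries. The siRNA and RNAP2 experiments were scaled separately and differ in treatment, so these levels are set side by side with no test across them.

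**Figure D1:**
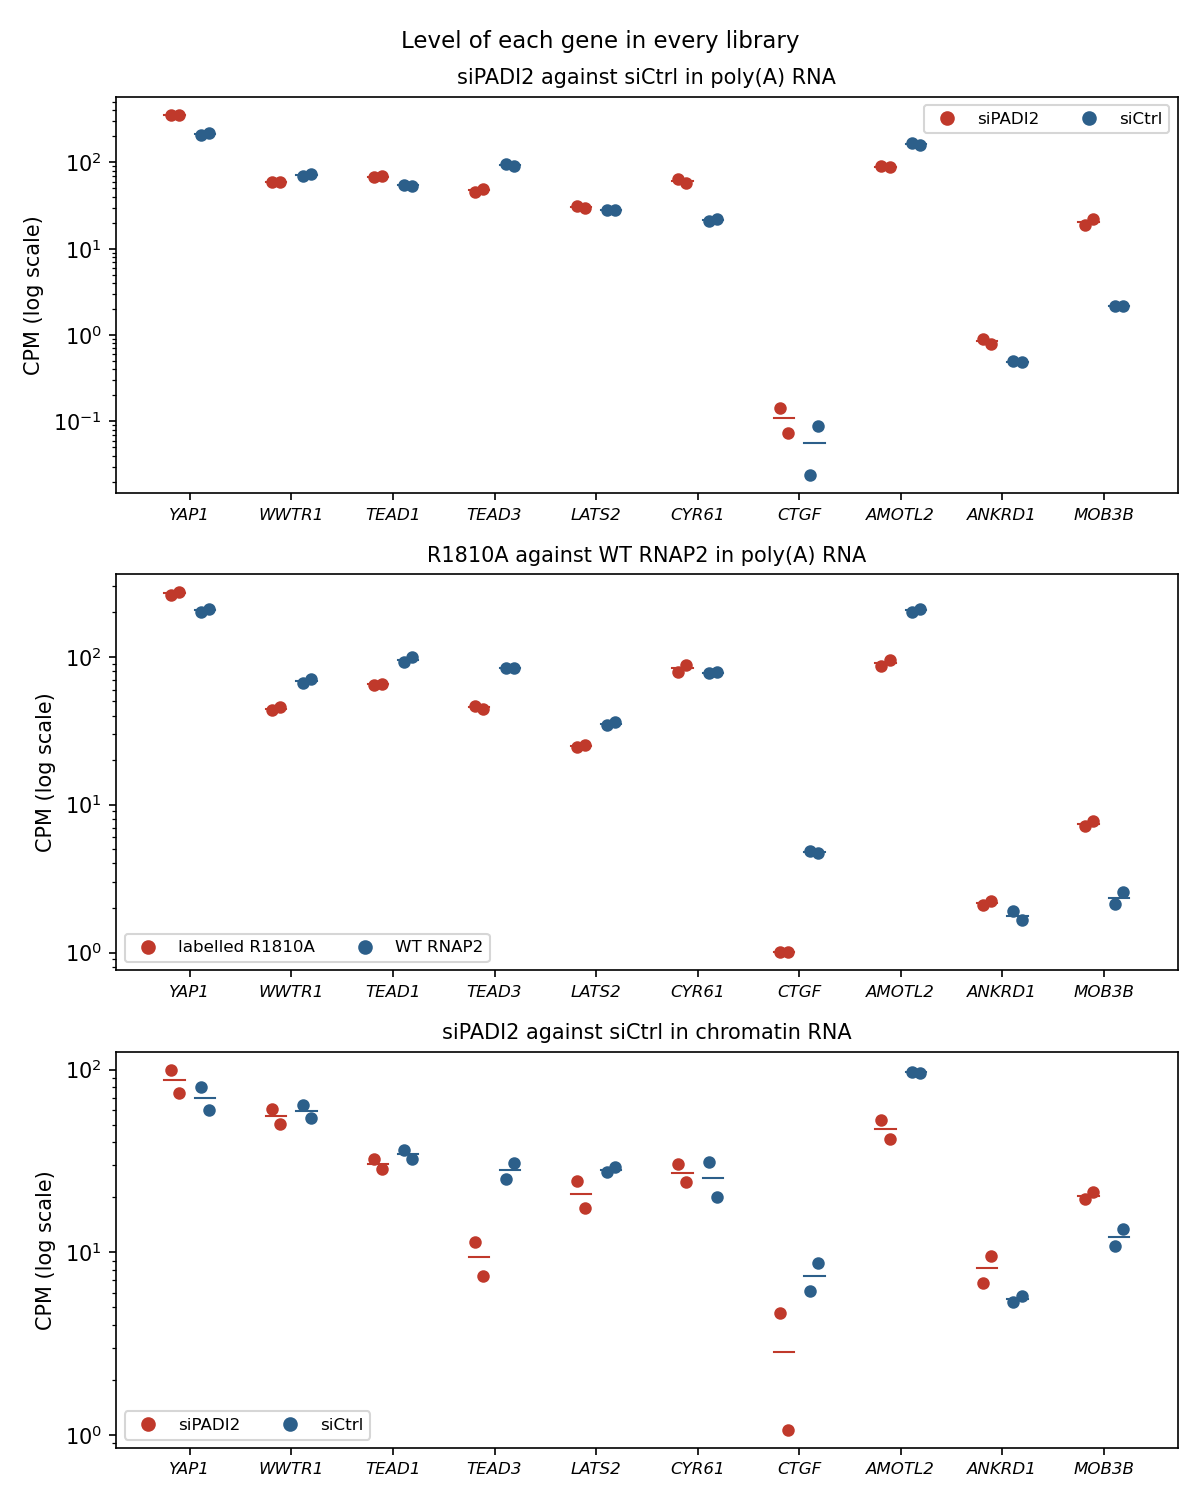
CPM (log scale) of the 10 genes in every library, in 1 panel for each comparison; points are libraries and short lines are group means, with siPADI2 or the libraries labelled R1810A on the left of each pair and siCtrl or WT on the right. MOB3B stands apart between siPADI2 (18.97 and 22.2 CPM) and siCtrl (2.16 and 2.19 CPM) in poly(A) RNA, and CTGF between the libraries labelled R1810A (1.00 and 1.01 CPM) and WT (4.88 and 4.71 CPM).

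The first comparison asked how the 10 genes differed in poly(A) RNA when PADI2 was knocked down. YAP1, TEAD1, CYR61, ANKRD1 and MOB3B were higher after siPADI2, and WWTR1, TEAD3 and AMOTL2 were lower. The changes thus divided both the coactivators and the TEAD genes, and they divided the targets. LATS2 did not pass the test and CTGF had too few counts to be tested. So 8 of the 9 genes tested were called, beside 56.7% of all 18720 genes tested. The 5 called higher stand beside 28.8% of all genes and the 3 called lower beside 27.9%. The median log2 fold change of the 9 was 0.33, and that of all genes was 0.0050. These and all adjusted p-values below come from edgeR's quasi-likelihood test with Benjamini-Hochberg adjustment over all genes tested, at a threshold of 0.05.

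YAP1 (ENSG00000137693.9, hg19 chromosome 11 from 101981192 to 102104154) had 357 and 359 CPM after siPADI2, against 207 and 221 CPM after siCtrl. The groups did not overlap, and the level with siPADI2 was 1.67-fold higher (log2 fold change 0.74, SE 0.0839, adjusted p = 9.35e-10). WWTR1 (ENSG00000018408.10, chromosome 3 from 149235022 to 149454501), the gene of the paralogous coactivator TAZ, had 58.7 and 59.0 CPM after siPADI2 and 70.4 and 73.8 CPM after siCtrl. Its fall was smaller (−0.30, SE 0.0831, adjusted p = 0.00256), and with total counts as library sizes, which moved the median of all genes to 0.19, it was −0.11 (adjusted p = 0.243).

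TEAD1 (ENSG00000187079.10, chromosome 11 from 12695969 to 12966298) had 67.3 and 68.9 CPM after siPADI2 and 55.2 and 53.5 CPM after siCtrl (log2 fold change 0.33, adjusted p = 0.00103). TEAD3 (ENSG00000007866.14, chromosome 6 from 35441374 to 35464853), which encodes another factor of the same family, had 46.0 and 48.7 CPM after siPADI2 and 95.9 and 90.6 CPM after siCtrl. With siPADI2 it was 1.97-fold lower (log2 fold change −0.98, SE 0.0841, adjusted p = 7.40e-13). The groups were separate for both TEAD genes, in opposite directions. LATS2 (ENSG00000150457.7, chromosome 13 from 21547171 to 21635686), the kinase that restrains YAP and TAZ, had 31.0 and 30.0 CPM after siPADI2 and 27.9 CPM in both siCtrl libraries. Its log2 fold change was 0.13 (SE 0.0929, adjusted p = 0.242). With total counts as library sizes it was 0.31 (adjusted p = 0.00447) and after correction for GC content 0.30 (adjusted p = 0.00115), and it then passed.

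CYR61 (ENSG00000142871.11, chromosome 1 from 86046444 to 86049645), a secreted matricellular protein and a widely used readout of YAP, had 64.8 and 58.3 CPM after siPADI2 and 21.0 and 22.2 CPM after siCtrl. It was 2.84-fold higher (log2 fold change 1.51, SE 0.0927, adjusted p = 4.02e-17). AMOTL2 (ENSG00000114019.10, chromosome 3 from 134074716 to 134094321), an angiomotin family scaffold that binds YAP and is also its target, had 91.2 and 88.0 CPM after siPADI2 and 169 and 160 CPM after siCtrl. It was 1.83-fold lower (log2 fold change −0.87, SE 0.0824, adjusted p = 8.62e-12), so these targets moved in opposite directions. AMOTL2 overlaps the pseudogene RPL39P5 on its own strand, and its counts may lack reads in the overlap.

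ANKRD1 (ENSG00000148677.6, chromosome 10 from 92671853 to 92681033), an ankyrin repeat protein of muscle and a YAP target, was scarce, with 0.909 and 0.796 CPM after siPADI2 and 0.504 and 0.483 CPM after siCtrl. The higher level with siPADI2 (log2 fold change 0.80, SE 0.258, adjusted p = 0.00824) was not called by DESeq2 (adjusted p = 0.0854), nor without replicate 2 of siCtrl (adjusted p = 0.104) or replicate 1 of siPADI2 (adjusted p = 0.0603). CTGF (ENSG00000118523.5, chromosome 6 from 132269316 to 132272513), the other matricellular target, had 17 and 10 counts after siPADI2 and 1 and 11 counts after siCtrl. That is 0.143 and 0.0730 CPM against 0.0240 and 0.0885 CPM, with overlap between the groups, and no difference was detectable at this level. Tested without the filter, its log2 fold change was 0.63 (SE 0.622, adjusted p = 0.540).

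MOB3B (ENSG00000120162.9, chromosome 9 from 27325207 to 27529779) encodes a member of the MOB family of kinase-binding proteins. It had 18.97 and 22.2 CPM after siPADI2 and 2.16 and 2.19 CPM after siCtrl. The 9.44-fold higher level was the widest difference among the 9 genes tested (log2 fold change 3.24, SE 0.130, adjusted p = 7.29e-23). The gene overlaps the interferon gene IFNK on the opposite strand, which the stranded counting separates.

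**Figure D2:**
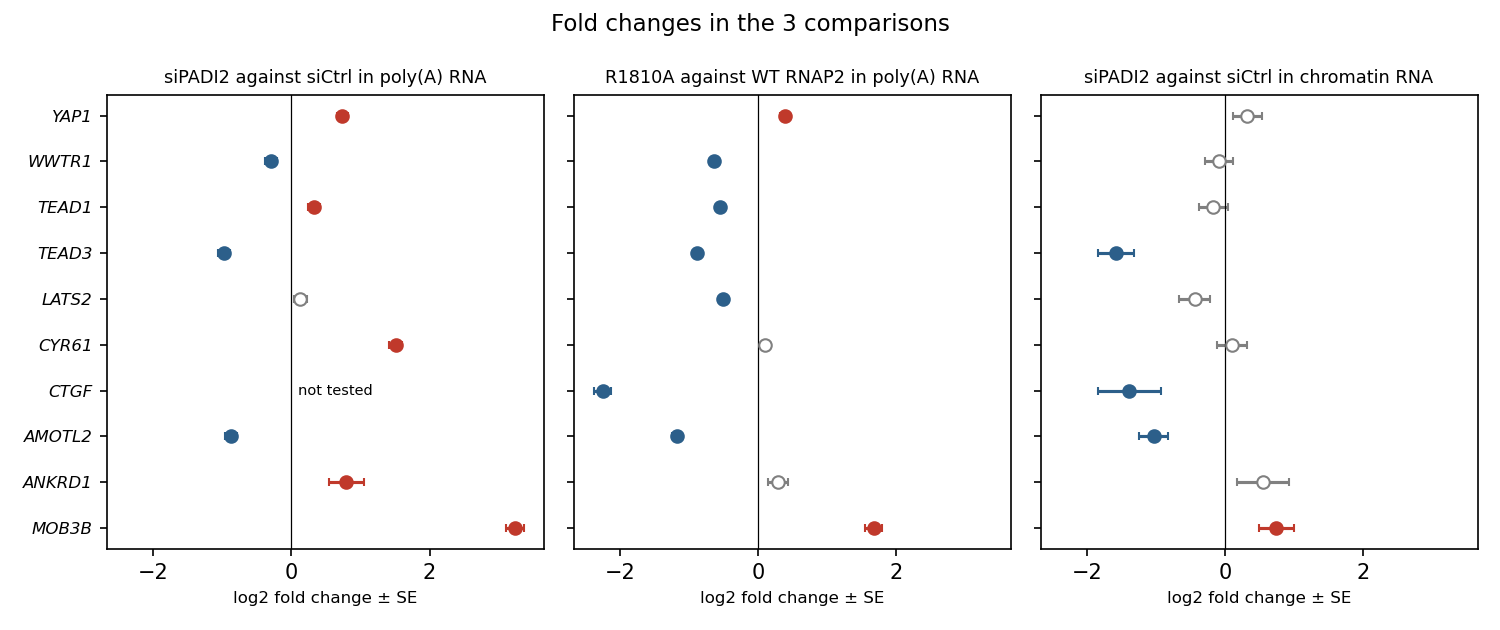
Log2 fold change of each of the 10 genes, with standard error, for siPADI2 against siCtrl in poly(A) RNA, the libraries labelled R1810A against WT, and siPADI2 against siCtrl in chromatin RNA; red points were called higher, blue points lower, and open points did not pass an adjusted p of 0.05. TEAD3 and AMOTL2 lie left of 0 in every panel, at −0.98, −0.89 and −1.58 for TEAD3.

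The second comparison set the libraries labelled R1810A against those labelled WT. YAP1 and MOB3B were higher in the libraries labelled R1810A, and WWTR1, TEAD1, TEAD3, LATS2, CTGF and AMOTL2 were lower. CYR61 and ANKRD1 did not pass. The 8 of 10 genes called stand beside 46.9% of all 19202 genes tested, the 2 called higher beside 22.6% and the 6 called lower beside 24.3%. Their median log2 fold change was −0.53, and that of all genes was −0.021.

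YAP1 had 262 and 274 CPM in the libraries labelled R1810A and 200 and 212 CPM in WT libraries, a log2 fold change of 0.38 (SE 0.0650, adjusted p = 0.000326). WWTR1 had 43.5 and 45.4 CPM in the libraries labelled R1810A and 66.7 and 71.2 CPM in WT libraries (−0.63, SE 0.0608, adjusted p = 2.17e-06). As with siPADI2, the levels of the paralogous coactivators moved apart. TEAD1 had 64.3 and 65.9 CPM in the libraries labelled R1810A and 91.6 and 98.9 CPM in WT libraries (−0.55, adjusted p = 7.53e-06). TEAD3 had 46.4 and 44.4 CPM in the libraries labelled R1810A and 84.2 CPM in each WT library (−0.89, adjusted p = 6.47e-08). LATS2 had 24.4 and 25.2 CPM in the libraries labelled R1810A and 34.5 and 36.1 CPM in WT libraries (−0.51, adjusted p = 2.39e-05). The groups did not overlap for any of these regulators, but the share of all genes without overlap was not counted.

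Of the targets, CTGF changed most. It had 1.00 and 1.01 CPM in the libraries labelled R1810A and 4.88 and 4.71 CPM in WT libraries, 4.77-fold lower in the libraries labelled R1810A (log2 fold change −2.25, SE 0.129, adjusted p = 2.15e-08). AMOTL2 had 86.8 and 95.5 CPM in the libraries labelled R1810A and 202 and 211 CPM in WT libraries (−1.18, adjusted p = 1.87e-08). CYR61 had 79.2 and 88.4 CPM in the libraries labelled R1810A and 77.2 and 79.3 CPM in WT libraries. Those groups overlapped, and the log2 fold change was 0.10 (SE 0.0644, adjusted p = 0.230). It passed after GC correction (0.17, adjusted p = 0.0318) and without replicate 1 of the libraries labelled R1810A (0.18, adjusted p = 0.0397). ANKRD1 had 2.11 and 2.24 CPM in the libraries labelled R1810A and 1.90 and 1.65 CPM in WT libraries (0.29, adjusted p = 0.115). MOB3B had 7.14 and 7.74 CPM in the libraries labelled R1810A and 2.12 and 2.56 CPM in WT libraries, 3.18-fold higher in the libraries labelled R1810A (1.67, SE 0.119, adjusted p = 1.49e-07).

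The effects of siPADI2 and of the R1810A label in poly(A) RNA rest on separate libraries, and their difference was tested as an interaction over the 8 libraries. Only the RNAP2 experiment had transfected polymerase and alpha-amanitin, and the reference groups differed in level. CTGF averaged 0.0562 CPM after siCtrl and 4.80 CPM in WT libraries, and CYR61 21.6 and 78.2 CPM. A difference between effects cannot be told apart from these differences between the experiments. The interaction passed for 8 of the 10 genes, beside 26.1% of all 19884 genes tested. All 8 differences were above 0, beside 11.8% above and 14.3% below 0 among all genes. TEAD1 had log2 fold changes of 0.33 with siPADI2 and −0.55 in the libraries labelled R1810A, a difference of 0.85 (adjusted p = 1.53e-05). For LATS2 the difference was 0.61 (adjusted p = 0.000371). CYR61, which passed with siPADI2 and not in the libraries labelled R1810A, differed by 1.38 (adjusted p = 5.91e-07). MOB3B was higher in both comparisons and differed by 1.55 (adjusted p = 1.69e-05). The joint fit was scaled over its 8 libraries, so these differences need not equal the subtraction of the fold changes printed.

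CTGF differed by 2.80 (SE 0.499, adjusted p = 0.000877), with an siRNA side that rests on the few counts given above. That difference was 4.33 without replicate 2 of siCtrl. YAP1 (0.33, adjusted p = 0.0181), WWTR1 (0.31, adjusted p = 0.0218) and AMOTL2 (0.28, adjusted p = 0.0390) differed less. Each of these 3 fell short when single libraries were left out, and AMOTL2 also with DESeq2's size factors (adjusted p = 0.0808). TEAD3 (−0.11, SE 0.0933, adjusted p = 0.420) and ANKRD1 (0.48, SE 0.253, adjusted p = 0.189) did not pass.

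**Figure D3:**
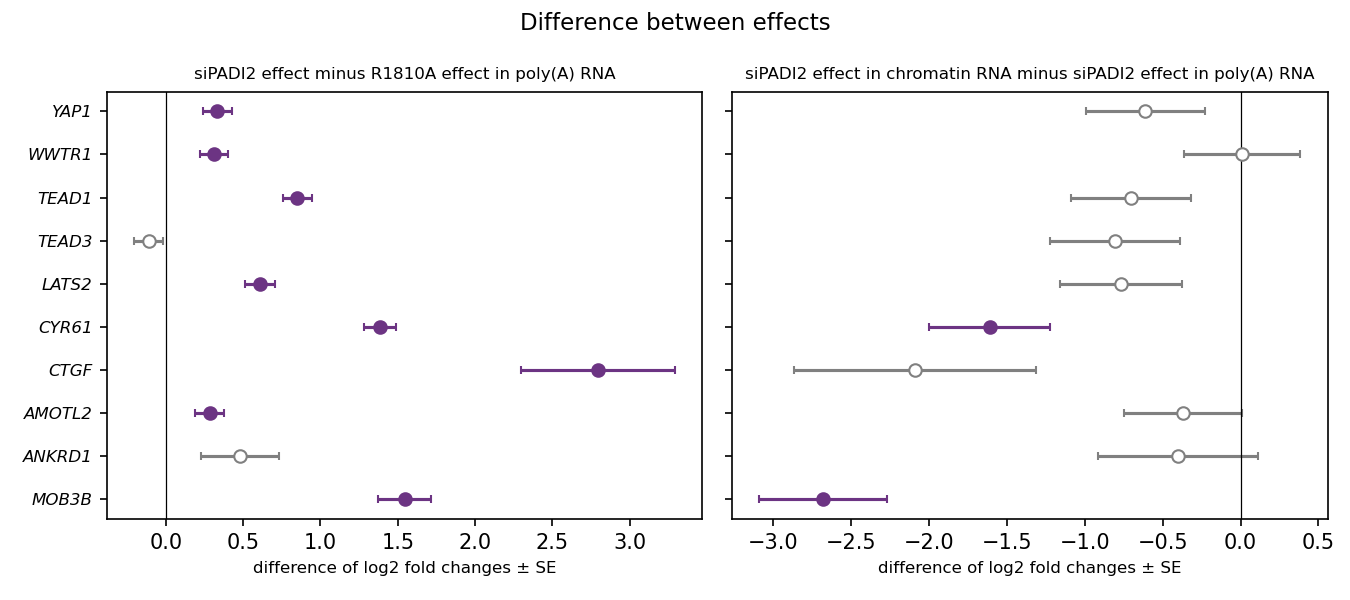
Difference between effects for each of the 10 genes, as log2 with standard error: siPADI2 minus R1810A label in poly(A) RNA on the left, and chromatin minus poly(A) RNA for siPADI2 on the right; filled points passed an adjusted p of 0.05. CTGF (2.80) lies farthest to the right on the left side, and MOB3B (−2.68) and CYR61 (−1.61) are the filled points on the right side.

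The third comparison repeated siPADI2 against siCtrl in chromatin RNA, at far lower depth. TEAD3, AMOTL2 and CTGF were lower after siPADI2 and MOB3B was higher, while the other 6 genes did not pass. These 4 of 10 called stand beside 32.4% of all 33879 genes tested, with 12.2% higher and 20.1% lower. The median of the 10 was −0.13 and that of all genes 0.028. With total counts the median of the 10 was −0.011, and after GC correction −0.22. After correction for GC content edgeR called 0 of the 10, with 4 at an unadjusted p under 0.05, and DESeq2 without that correction called 2 of 10. TEAD3 and AMOTL2, with 59.8% and 56.7% GC, have the highest GC content of the 10 genes.

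TEAD3 had 11.4 and 7.44 CPM in siPADI2 chromatin and 25.3 and 30.8 CPM in siCtrl chromatin (log2 fold change −1.58, SE 0.260, adjusted p = 6.87e-08). After GC correction its value was −0.59 (adjusted p = 0.0957). AMOTL2 had 52.9 and 41.5 CPM in siPADI2 chromatin and 97.6 and 95.5 CPM in siCtrl chromatin (−1.03, SE 0.214, adjusted p = 2.49e-05), and its GC-corrected value was −0.25 (adjusted p = 0.356). The uncorrected values of both genes point the same way as in poly(A) RNA.

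MOB3B had 19.5 and 21.3 CPM in siPADI2 chromatin and 10.9 and 13.4 CPM in siCtrl chromatin (0.74, SE 0.254, adjusted p = 0.0150). Its call was lost with DESeq2 (adjusted p = 0.152), after GC correction (0.43, adjusted p = 0.218) and without replicate 1 of siCtrl, replicate 1 of siPADI2 or replicate 2 of siPADI2 (adjusted p = 0.127, 0.0564 and 0.126). CTGF had 13 and 3 counts in siPADI2 chromatin and 38 and 59 counts in siCtrl chromatin, or 4.61 and 1.06 CPM against 6.16 and 8.69 CPM. Its fall (−1.38, SE 0.453, adjusted p = 0.0108) was not called by DESeq2 (adjusted p = 0.158) or after GC correction (−1.16, adjusted p = 0.0811). It was −0.68 without replicate 2 of siPADI2 (adjusted p = 0.388), −1.15 without replicate 5 of siCtrl (adjusted p = 0.160) and −2.79 without replicate 1 of siPADI2. CTGF overlaps the antisense gene AL133346.1, on the other strand.

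The chromatin counts need a further value beside them. CDH5, an endothelial cadherin listed at 0 in both siCtrl poly(A) libraries, had 6.03 and 11.3 CPM in siPADI2 chromatin and 19.8 and 16.2 CPM in siCtrl chromatin. CDH5 was itself called lower after siPADI2 there (log2 fold change −1.05, adjusted p = 0.00200). This value and those of the other markers below were not corrected for GC content. The mesenchymal marker PDGFRB, also at 0 in both siCtrl poly(A) libraries, fell too. PDGFRB had 15.3 and 15.2 CPM in siPADI2 chromatin and 52.0 and 58.2 CPM in siCtrl chromatin. Some other markers that are scarce in poly(A) RNA went the other way or did not pass. The basal marker TP63 was higher in siPADI2 chromatin (0.71, adjusted p = 0.00291). The blood marker PTPRC had 58.9 and 51.7 CPM in siPADI2 chromatin and 40.2 and 40.0 CPM in siCtrl chromatin (0.46, adjusted p = 0.0606). In siCtrl chromatin PDGFRB and PTPRC stood above the means of TEAD1 (34.3 CPM), LATS2 (28.3), TEAD3 (28.0) and CYR61 (25.6). They also stood above CTGF, ANKRD1 and MOB3B, while AMOTL2 (96.6), YAP1 (69.8) and WWTR1 (59.2) averaged more. The part of such counts in the chromatin values of the 10 genes was not tested.

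YAP1 had 100 and 74.8 CPM in siPADI2 chromatin and 79.9 and 59.8 CPM in siCtrl chromatin, with overlap (0.32, adjusted p = 0.231). CYR61 had 30.5 and 24.1 CPM in siPADI2 chromatin and 31.1 and 20.0 CPM in siCtrl chromatin, also with overlap (0.10, adjusted p = 0.762). WWTR1 overlapped as well (−0.087, adjusted p = 0.777). TEAD1 (−0.17, adjusted p = 0.557), LATS2 (−0.44, adjusted p = 0.120) and ANKRD1 (0.55, adjusted p = 0.259) did not overlap between groups and did not pass.

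Whether the siPADI2 effect differed between chromatin and poly(A) RNA was tested as an interaction over 8 libraries. It passed for CYR61 and MOB3B, 2 of 10 genes, beside 8.05% of all 44615 genes tested, with 1.71% above and 6.34% below 0. The median difference over all genes was −0.16. PADI2, the siRNA target, had log2 fold changes of −1.57 in chromatin RNA and −3.65 in poly(A) RNA. A smaller fold change in chromatin RNA was thus not confined to the 10 genes. CYR61 was 2.84-fold higher in poly(A) RNA and had a log2 fold change of 0.10 in chromatin RNA, a difference of −1.61 (SE 0.388, adjusted p = 0.00112). It was −1.04 without replicate 1 of siCtrl chromatin and passed in every alternative fit that was run. MOB3B had log2 fold changes of 0.74 in chromatin RNA and 3.24 in poly(A) RNA, a difference of −2.68 (SE 0.411, adjusted p = 1.76e-08), and it also passed in every alternative fit. The differences come from the joint fit, scaled over its 8 libraries, and so do not equal the subtraction of the fold changes printed. For the other 8 genes the difference did not pass, with adjusted p-values from 0.0754 (CTGF, −2.09) to 1.00 (WWTR1, 0.0098). Without replicate 2 of siCtrl poly(A) RNA it passed for CTGF (−3.85), LATS2 (−1.03), TEAD3 (−1.03), TEAD1 (−0.94) and YAP1 (−0.93). Without replicate 1 of siPADI2 chromatin it passed for CTGF (−3.39), TEAD3 (−0.96), LATS2 (−0.86) and YAP1 (−0.66). The difference for CTGF ranged from −3.85 to −1.23 with single libraries left out. TEAD3 differed by −0.81 (adjusted p = 0.310) and AMOTL2 by −0.37 (adjusted p = 0.860). The fractions differ in library kit and depth as well as in RNA, so these cannot be told apart.

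The rest of the pathway was read from lists of named genes. In the core cascade of kinases and their partners, 4 of 14 genes were higher and 4 lower in poly(A) RNA with siPADI2, with a median of −0.058. Both shares are near those of all genes (28.8% higher and 27.9% lower). With total counts as library sizes the split was 6 and 2 and the median 0.12, and after GC correction the median was 0.018. The upstream kinase gene STK3 averaged 66.2 ± 1.72 CPM after siPADI2 and 34.2 ± 3.28 CPM after siCtrl (SD, n = 2; log2 fold change 0.95). MOB1A, the LATS cofactor, averaged 67.9 ± 6.65 CPM after siPADI2 and 160 ± 11.5 CPM after siCtrl (−1.24). WWC1 (0.74) and LATS1 (0.48) were higher and WWC2 (−1.22) and SAV1 (−0.37) lower, the last not passing with total counts (adjusted p = 0.0799). In the libraries labelled R1810A, 2 of 14 were higher and 4 lower (median −0.013, or 0.0030 to 0.049 under the other scalings and GC correction), beside 22.6% and 24.3% of all genes, with STK3 at 0.66, TAOK3 at 0.23, MOB1A at −1.21, SAV1 at −0.33 and WWC2 at −0.30.

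The other TEAD genes went the way of TEAD3 in poly(A) RNA. TEAD2 averaged 33.2 ± 0.233 CPM after siPADI2 and 61.4 ± 2.32 CPM after siCtrl (log2 fold change −0.89). TEAD4 averaged 10.5 ± 1.19 CPM after siPADI2 and 18.0 ± 0.633 CPM after siCtrl (−0.77). They were also lower in the libraries labelled R1810A (−0.97 and −0.93). Of the VGLL genes, which encode other TEAD partners, VGLL1 (0.97) and VGLL4 (0.43) were higher and VGLL3 (−0.53) lower in poly(A) RNA with siPADI2, VGLL3 not passing with total counts (adjusted p = 0.139). Of these 5 TEAD and VGLL genes, the libraries labelled R1810A had 0 higher and 4 lower (median −0.74), or 3 lower with total counts, DESeq2's size factors or GC correction, under which VGLL1 did not pass. Among all genes there 22.6% were higher and 24.3% lower.

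MOB3B went against the other called genes of its family in poly(A) RNA. Of 6 other MOB genes, 2 of them also in the core cascade, poly(A) RNA after siPADI2 had 0 higher and 5 lower (median −0.39), with MOB3A at −1.21 and MOB3C at −0.52 beside MOB1A. Of all genes 28.8% were higher and 27.9% lower. With total counts the MOB split was 0 and 3. In the libraries labelled R1810A 0 were higher and 4 lower (median −0.41), beside 22.6% and 24.3% of all genes, with MOB3A at −0.62 and MOB3C at −0.55. There MOB2 and MOB4 passed as higher with total counts (0.24 and 0.17), and MOB2 also after GC correction (0.26).

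Among 10 scaffolds of cell junctions and polarity, 3 were higher and 3 lower in poly(A) RNA after siPADI2 (median 0.19), near the 28.8% and 27.9% of all genes. With total counts the split was 5 and 1, and after GC correction 5 and 2. AMOTL1, the angiomotin paralog of AMOTL2, averaged 16.0 ± 1.24 CPM after siPADI2 and 7.41 ± 0.887 CPM after siCtrl (log2 fold change 1.13), and was lower in the libraries labelled R1810A (−0.76). The polarity scaffold gene DLG5 was higher in both (0.60 and 0.40), and PTPN14, a phosphatase that binds YAP, lower in both (−0.70 and −0.85). SCRIB (0.51) was higher, and CRB3 (−0.26) and LLGL1 (−0.23) lower, with siPADI2. Neither lower call held with total counts (adjusted p = 0.489 and 0.726), and that of LLGL1 did not after GC correction (adjusted p = 0.0798). In the libraries labelled R1810A 1 was higher and 3 lower (median 0.021), beside 22.6% and 24.3% of all genes. After GC correction 4 were higher and 3 lower. FAT4 was among the lower scaffolds (−0.84) at a trace level, averaging 0.290 CPM in the libraries labelled R1810A and 0.519 CPM in WT libraries.

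Of 17 other YAP and TAZ signature genes, 14 were tested after siPADI2 in poly(A) RNA, and 5 were higher and 7 lower (median −0.32), beside 28.8% and 27.9% of all genes. With total counts 6 were higher and 7 lower, and the median was −0.13. CCDC80, a matrix protein gene, averaged 3.95 ± 0.109 CPM after siPADI2 and 0.654 ± 0.0256 CPM after siCtrl (log2 fold change 2.61). FJX1 (0.83) and F3, the tissue factor gene (0.60), were higher too. The receptor kinase gene AXL (−2.82) and IGFBP3 (−2.02) were lower, both at under 1 CPM in all 4 libraries. NUAK2, a kinase gene, followed at −1.07. In the libraries labelled R1810A 3 were higher and 7 lower of 15 tested (median −0.22), beside 22.6% and 24.3% of all genes. CCDC80 (1.44) and the growth factor gene TGFB2 (1.20) were higher there, as was RBMS3 at a trace level (1.77, with adjusted p = 0.0735 after GC correction). AXL (−1.82), IGFBP3 (−1.31) and PTPN14, which is on this list as well, were lower. AXL averaged 0.0705 CPM in the libraries labelled R1810A and 0.252 CPM in WT libraries.

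In chromatin RNA most calls on these lists did not hold after GC correction. The counts that follow stand beside 12.2% higher and 20.1% lower among all genes. The core cascade had 3 higher (STK3, STK4 and TAOK3) and 1 lower (TAOK2) of 14, and the corrected split was 1 and 1. TAOK2 turned its sign, with −0.52 before and 0.54 after correction, both past the threshold. The junction scaffolds had 0 higher and 4 lower of 10, led by DCHS1 (−2.74), LLGL1 (−1.28) and SCRIB (−1.12), and 2 lower after correction, when LLGL1 and SCRIB did not pass. DCHS1 had 0.0842 and 0.0730 CPM in poly(A) RNA after siPADI2 and 0.144 and 0.121 CPM after siCtrl, so its chromatin counts have next to no poly(A) counterpart. VGLL3 (0.89) was higher in chromatin RNA and passed with and without correction, while TEAD2 (−0.54) and TEAD4 (−0.66) did not pass and turned their sign (0.36 and 0.35). MOB2 was lower (−1.89), and after correction it did not pass (adjusted p = 0.0559), while MOB3A was then higher (0.91) and MOB1A (−0.61) and MOB4 (−0.70) lower. The signature genes had 3 higher (F3 at 0.92, TGFB2 at 0.81 and RBMS3 at 0.67) and 2 lower (NUAK2 at −1.11 and ARHGEF17 at −1.03) of 17, and none of these 5 genes passed after correction, when FJX1 (1.04) and FOXF2 (0.90) were higher and MYOF (−0.67) lower.

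**Figure D4:**
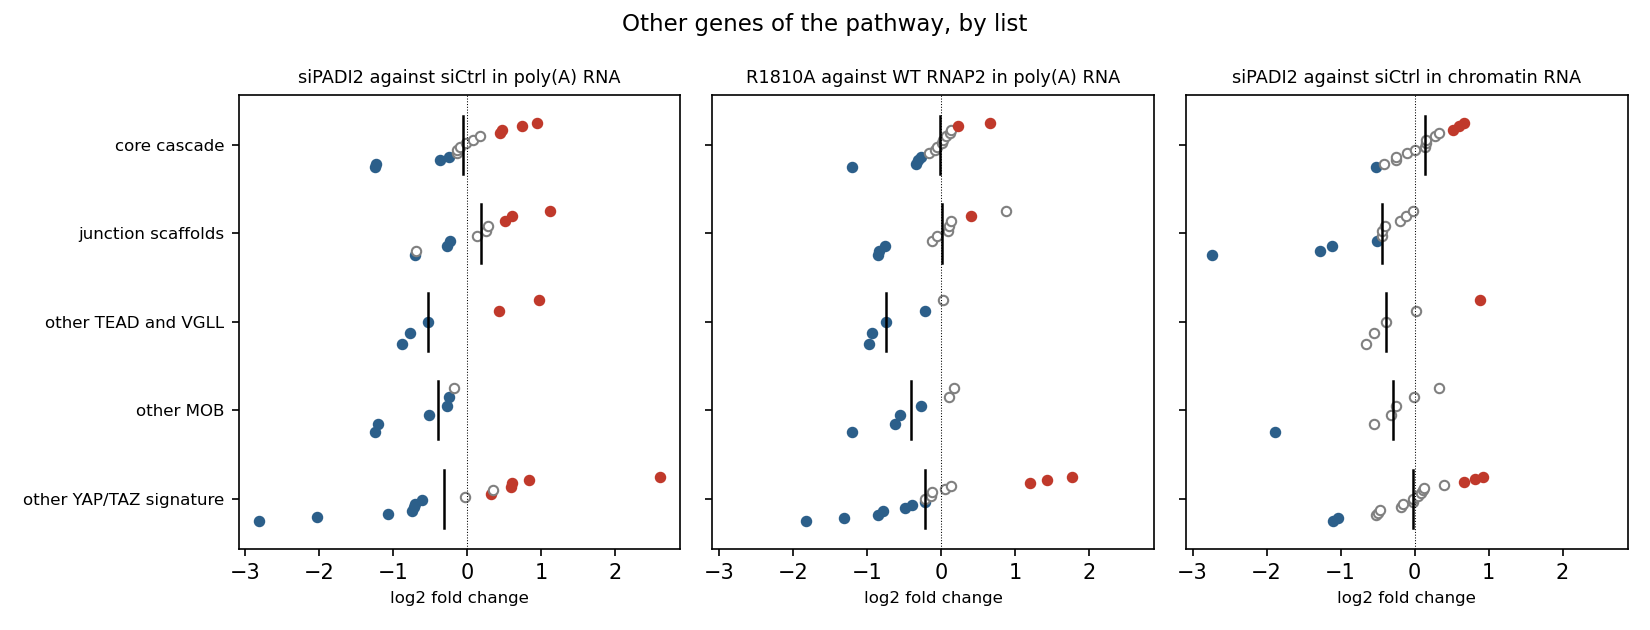
Log2 fold change of each tested gene of the 5 pathway lists in the 3 comparisons; red points were called higher, blue lower, open points did not pass an adjusted p of 0.05, and black bars are list medians. The other MOB genes hold no red point with the scaling shown, with medians of −0.39, −0.41 and −0.29, while MOB2 and MOB4 passed as higher in the libraries labelled R1810A with total counts, and after GC correction MOB2 did there and MOB3A in chromatin RNA.

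The genes whose levels most resembled YAP1 over the 12 libraries, by Pearson's r of log2(CPM + 1) among 17114 genes tested in every comparison, were PTPRK (r = 0.995), ATG13 (0.994) and IER3IP1 (0.994). Among those nearest to CYR61 were RMDN1 (0.990) and MFN1 (0.984). The CPM were scaled within each comparison, so these values also span libraries that were scaled apart. They describe 6 groups of 2 libraries, and the contrast between poly(A) and chromatin RNA contributes to them.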

How the data were processed

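The authors deposited a table of unnormalized fragment counts for every library. The submitters' processing notes name Trimmomatic, STAR and featureCounts and the build hg19. Strand-specific counting of read pairs over GENCODE 19 genes used featureCounts 1.5.1 in poly(A) libraries and 1.4.6-p2 in chromatin libraries, per the file headers. No option for multi-mapping reads was set, per the file headers, so reads shared by near-identical genes are missing.

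Symbols and GC content came from GENCODE 29 by gene identifier (52338 of 57820 genes matched). Each comparison was fitted on its 4 libraries with edgeR 4.0.16 in R 4.3.3 (TMM, filterByExpr with a minimum count of 10, robust quasi-likelihood F test), with Benjamini-Hochberg adjustment over all genes tested. Differences between effects were interaction contrasts in joint fits of 8 libraries. The standard error is the log2 fold change divided by the square root of F. CPM use TMM factors of the 4 libraries compared. Replicate pairs differed by more than sampling noise (chi-square per degree of freedom 3.55 to 91.7). Alternatives were DESeq2 1.42.0, its size factors, total counts, no filter, GC correction, a replicate block, a joint fit of the poly(A) libraries and leaving out each library. TMM within each experiment, for the interactions, and other scalings of the pathway lists were added after the data were seen. The genes and lists were chosen with earlier results of these data known. From each list, up to 3 called genes per direction with the widest fold change were named. CDH5, PDGFRB, TP63, PTPRC, EPCAM, KRT18 and FOXA1 were chosen after their values were seen. The scripts were tested on simulated counts. PECAM1 was not matched and is not used here. A gene among those most like CYR61 is not reported here.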

Additional observations from a re-analysis of the deposited data

Results flagged for a closer look

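For 8 of the 10 genes, the effect of siPADI2 and that of the R1810A label in poly(A) RNA differed by the interaction test (edgeR, adjusted p under 0.05). The experiments also differ in transfected polymerase and alpha-amanitin, and these cannot be told apart from the difference between effects. The differences, as log2 fold change with siPADI2 minus that in the libraries labelled R1810A, were 0.33 for YAP1, 0.31 for WWTR1, 0.85 for TEAD1, 0.61 for LATS2, 1.38 for CYR61, 2.80 for CTGF, 0.28 for AMOTL2 and 1.55 for MOB3B. The limits given above for CTGF, YAP1, WWTR1 and AMOTL2 apply here, as does the doubt over the libraries labelled R1810A. The siPADI2 effect in chromatin RNA minus that in poly(A) RNA also passed for CYR61, at −1.61, and for MOB3B, at −2.68.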

How the results depend on the processing

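The count of genes called in chromatin RNA, 10962, was 4110 with DESeq2, 5036 after GC correction and 4846 to 7988 with single libraries left out. The count of the 10 genes called there, 4, was 2, 0 and 2 to 3 under the same settings. The count for the chromatin minus poly(A) difference, 3592, was 6148 with DESeq2's size factors, 5740 with total counts, 6067 with TMM within each experiment and 2249 to 6804 with single libraries left out. Signs turned for values that had not passed: in chromatin RNA, WWTR1 (0.032 with total counts, −0.23 to 0.042 with single libraries left out) and CYR61 (−0.23 to 0.45); TEAD3 for siPADI2 minus R1810A (0.034 with total counts); and for chromatin minus poly(A), AMOTL2 (0.020 with DESeq2's size factors, −0.58 to 0.038 with single libraries left out) and WWTR1 (−0.042 without the filter, −0.29 to 0.37). The causes were not tested. Total counts moved the median of all genes to 0.19, 0.042 and 0.14 in the comparisons as ordered above, and the share of calls that were higher to 67.0%, 56.7% and 45.9%, against 50.8%, 48.3% and 37.8% with TMM. Of all values of the 10 genes under alternatives, 495 kept direction and side of the threshold, 28 lost a call, 15 gained one and 11 changed sign.

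Same-numbered libraries deviated together with correlations of 0.078 (siRNA) and 0.403 (RNAP2) in poly(A) RNA, with 2 pairs each, too few to show whether the numbers pair the libraries. With a replicate block 11513 and 12582 genes were called, against 10620 and 9010 without it, and 7764 against 5196 for the difference between them; CYR61 (0.10, adjusted p = 0.0213) and ANKRD1 (0.29, adjusted p = 0.0148) then passed in the libraries labelled R1810A. No paired analysis was possible in chromatin RNA because the groups share fewer than 2 replicate numbers. Low counts limit CTGF in the poly(A) siRNA libraries (1 to 17 counts), and depth limits scarce genes in chromatin RNA.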
